A study of Mus musculus with 6 samples.

Results

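The collagen genes encode the chains of the most abundant structural proteins of the extracellular matrix. They were taken from the table of all genes as the protein-coding genes whose whole name is Col, a number, the letter a and a number, which gave 44 genes of 54532, and of 22046 that are protein-coding. They were sorted into 11 fibrillar, 6 basement membrane, 6 beaded, 9 FACIT, 2 multiplexin, 4 transmembrane, 3 short-chain network and 3 other genes (Col7a1, Col26a1 and Col28a1). FACIT stands for fibril-associated collagens with interrupted triple helices. A further FACIT gene on the class list, Col21a1, has no row in the table analysed here.

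The study used P19, an established mouse embryonal carcinoma line that can form neurons when given retinoic acid. Cells were transfected by lipofection with an siRNA against Baf45d, or with a negative control (NC) siRNA, and cells of both groups then had all-trans retinoic acid for 5 days. Baf45d is also called Dpf2 and encodes a protein of the BAF complex, which remodels chromatin, and the series title names SMAD signalling and early neural differentiation as the question. Total RNA was sequenced from 3 biological replicates per group, numbered 1 to 3. The siRNA transfection was transient, and all cells descend from 1 tumour-derived line without any tissue around them.

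A collagen is a trimer of chains that wind around each other in a helix, and each class builds another kind of structure. Fibrillar collagens (types I, II, III, V and XI among others) form the cross-banded fibrils of connective tissue, FACITs sit on the surface of those fibrils, and type IV chains form the sheet-like network of basement membranes. Type VI makes beaded microfilaments, and multiplexins such as type XVIII lie in basement membranes and carry a fragment known as endostatin. In the embryo, the neural epithelium rests on a basement membrane with type IV and type XVIII collagen, while fibrillar collagens are made mainly by mesenchymal cells around it.

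Library depth ran from 17127876 to 18499169 counts in Baf45d siRNA libraries and from 17767104 to 21224822 counts in NC siRNA libraries. The targeted gene, Dpf2, stood at 148.2, 141.4 and 147.2 CPM (counts relative to library size after TMM scaling) in Baf45d siRNA libraries, against 156.1, 154.1 and 157.5 CPM in NC siRNA libraries. These values did not overlap, but the log2 fold change of -0.10 (SE 0.07) did not pass the threshold in edgeR's quasi-likelihood test (adjusted p = 0.996), so a knockdown was not resolved in the RNA at harvest. Gapdh, which shares sequence with many pseudogenes, stood at 23.9, 14.0 and 236.2 CPM in Baf45d siRNA libraries, against 21.5, 31.2 and 27.1 CPM in NC siRNA libraries, so that Baf45d siRNA replicate 3 stood apart. The labels' transfection text also names a Gapdh siRNA but ties it to none of the 6 libraries. Deviations from the group means correlated across 16078 genes between the libraries numbered 3 (r = 0.346), so values without them are given where a result rests on them. Summed markers of neurons (12 genes) stood at 1336, 1228 and 871.5 CPM in Baf45d siRNA libraries, against 1044, 952.6 and 946.6 CPM in NC siRNA libraries. Those of pluripotent cells (8 genes) ranged from 11.5 to 14.4 CPM in Baf45d siRNA libraries and from 10.7 to 14.1 CPM in NC siRNA libraries. Of the pluripotency markers Zfp42 and Dppa5a were at 0 in all 6 libraries and Fgf4 in all but Baf45d siRNA replicate 2, while Pou5f1, Nanog, Tdgf1, Esrrb and Klf4 were present at low levels.

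Several collagen genes lie close together in the genome (GRCm38 coordinates). Col4a1 and Col4a2 are arranged head to head on chromosome 8, and their annotated ends overlap by 22 bases. Col4a6 and Col4a5 are likewise head to head on chromosome X, with 1308 bases between them. Col3a1 and Col5a2 face each other tail to tail on chromosome 1, 24614 bases apart. Col6a2 and Col6a1 lie in tandem on chromosome 10, 85161 bases apart, with 1 other annotated gene between them. RefSeq promoter windows (GRCm38.p6, from 250 bases before to 50 bases after the annotated start) were matched by symbol for 35 of the 44 genes, 38 windows in all. Windows are shown for Col5a1 and Col6a1, which had the smallest p-values among the collagens, for Col1a2, a chain of type I collagen, and for Col4a2, whose window overlaps that of Col4a1. Each runs 5′ to 3′ on the strand of its gene. In the first 3, capitals mark any TATA box, taken as the letters TATAAA, any box spelled CCAAT, and any GC box, spelled GGGCGG, searched on both strands. Matches of different motifs may overlap, but none shown here do. In Col4a2, capitals mark the 78 bases that also lie in the Col4a1 window.
Col5a1, chr2:27886175-27886474, plus strand: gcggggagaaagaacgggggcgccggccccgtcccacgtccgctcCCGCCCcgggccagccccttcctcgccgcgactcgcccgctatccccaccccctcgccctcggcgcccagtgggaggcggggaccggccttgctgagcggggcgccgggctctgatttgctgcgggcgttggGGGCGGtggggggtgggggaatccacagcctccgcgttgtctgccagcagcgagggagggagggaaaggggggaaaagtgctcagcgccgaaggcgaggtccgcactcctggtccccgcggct
Col6a1, chr10:76725995-76726294, minus strand: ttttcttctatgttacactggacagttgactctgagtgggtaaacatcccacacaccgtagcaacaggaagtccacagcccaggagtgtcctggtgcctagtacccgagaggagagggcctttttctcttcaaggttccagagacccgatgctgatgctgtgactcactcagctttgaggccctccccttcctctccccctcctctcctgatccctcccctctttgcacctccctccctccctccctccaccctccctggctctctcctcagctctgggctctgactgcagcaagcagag
Col1a2, chr6:4505368-4505667, plus strand: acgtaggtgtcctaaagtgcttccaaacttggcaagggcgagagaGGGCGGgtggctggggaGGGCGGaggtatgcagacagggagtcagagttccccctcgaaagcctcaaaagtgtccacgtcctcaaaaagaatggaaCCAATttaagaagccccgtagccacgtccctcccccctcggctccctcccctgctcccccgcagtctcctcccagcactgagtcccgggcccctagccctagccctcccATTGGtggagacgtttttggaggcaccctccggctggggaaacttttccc
Col4a2, chr8:11312555-11312854, plus strand: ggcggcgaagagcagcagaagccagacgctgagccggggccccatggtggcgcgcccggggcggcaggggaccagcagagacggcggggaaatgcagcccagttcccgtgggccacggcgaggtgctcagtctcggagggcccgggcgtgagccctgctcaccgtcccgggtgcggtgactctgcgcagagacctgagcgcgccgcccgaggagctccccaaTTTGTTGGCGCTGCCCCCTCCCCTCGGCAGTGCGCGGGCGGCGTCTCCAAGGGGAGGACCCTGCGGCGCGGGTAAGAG

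The Col5a1 window holds GC boxes, the Col1a2 window holds GC boxes and CCAAT boxes, and the Col6a1 window holds none of the 3 motifs. The GC box was found in 23 of the 38 collagen windows (60.5%), against 35.7% of 32851 windows of all genes. The CCAAT box was in 34.2% of collagen windows against 37.4% of all, and the TATA box in 13.2% against 13.6%. These are matches of letters and do not show binding.

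Levels between genes were compared per length, as the authors' FPKM. Averaged over the 6 libraries, 20 collagens reached 2 FPKM and 8 were under 0.1 FPKM. Col18a1, the multiplexin, was the highest at 86.5 FPKM, with 82.3 ± 15.3 FPKM in Baf45d siRNA libraries and 90.6 ± 5.21 FPKM in NC siRNA libraries (SD, n = 3 each). Col3a1, the chain of type III collagen, followed at 58.2 FPKM. Its libraries (50.3 to 66.4 FPKM) all lay below every Col18a1 library in the FPKM as deposited. Next came Col1a2 (34.4 FPKM), the FACIT Col12a1 (31.1 FPKM), the type V chain Col5a2 (29.8 FPKM) and the other type I chain, Col1a1 (27.4 FPKM). The library values of those 4 genes overlapped, so their full order is not resolved, although Col1a2 was above Col1a1 within each of the 6 libraries. Col4a5, Col5a1, Col4a2, Col11a1 and Col4a1 lay between 12.1 and 19.3 FPKM.

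The length behind FPKM was the union of all exons for 42 of the 44 genes. For 10 collagens that union was over 1.5 times the main transcript, as for Col1a2 (12426 against 5348 bases), so FPKM understates them. With main transcript lengths 22 rather than 20 collagens reached 2 FPKM, Col18a1, Col3a1 and Col1a2 kept their places, and Col5a2 moved ahead of Col12a1. At those lengths Col18a1 averaged 126.7 FPKM and Col3a1 102.6 FPKM over the 6 libraries, and their library ranges overlapped.

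**Figure D1:**
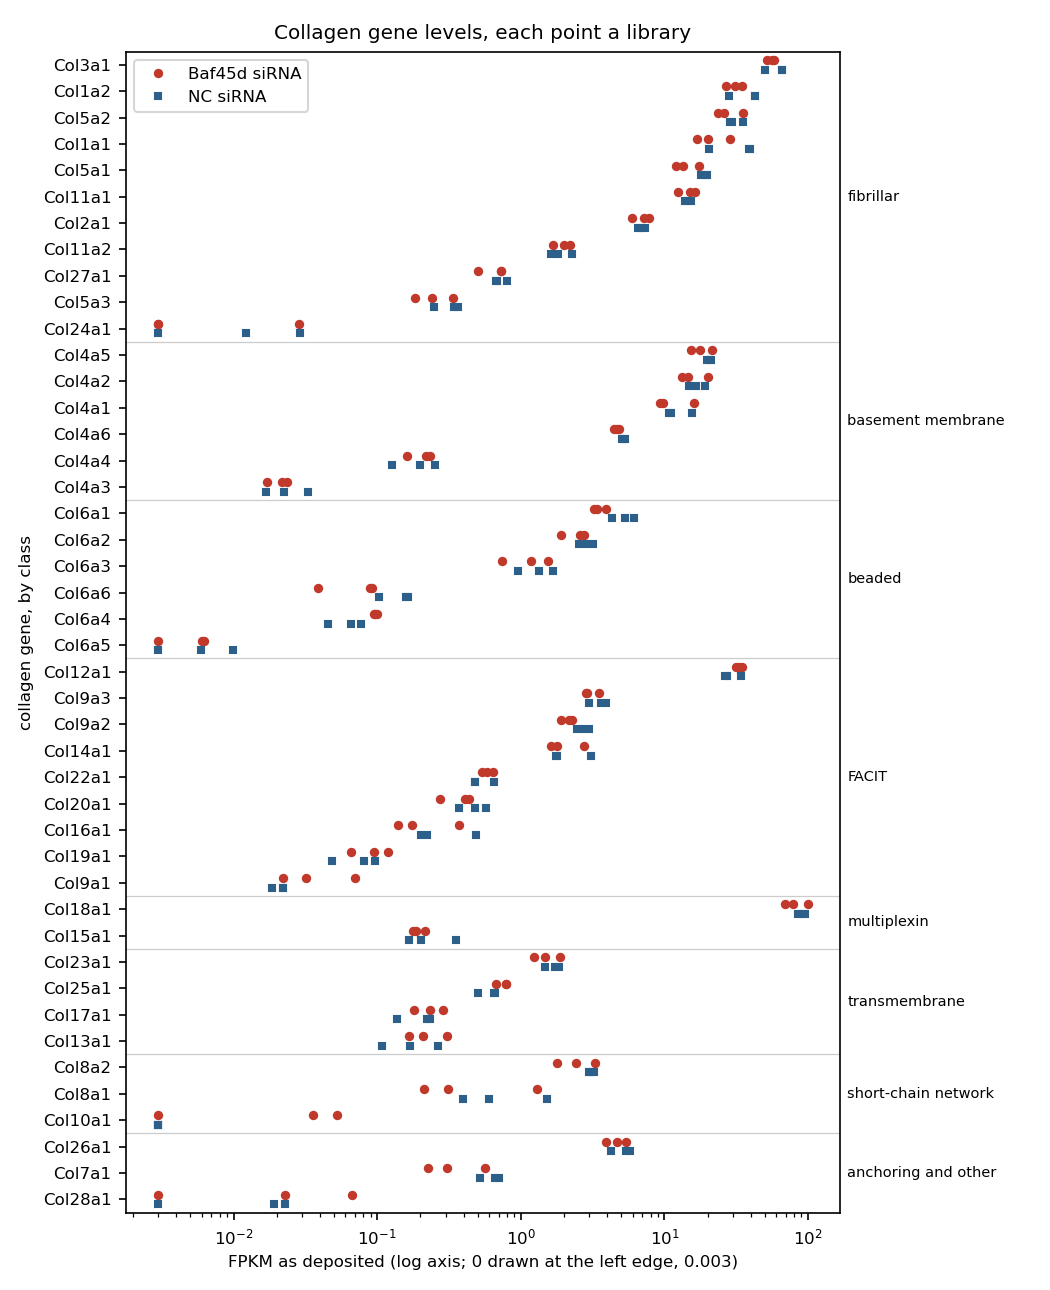
FPKM (log axis) of each collagen gene in each library, grouped by class, with Baf45d siRNA libraries as circles and NC siRNA libraries as squares and a level of 0 drawn at the left edge. Col18a1 and Col3a1 lie highest, and the spread between genes far exceeds that between the groups.

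Fibrillar genes made up 49.5%, 49.9% and 44.0% of the summed collagen FPKM in Baf45d siRNA libraries, against 51.7%, 53.1% and 44.8% in NC siRNA libraries. The multiplexins gave 20.6% to 24.9% and 20.7% to 23.8%, basement membrane genes 12.5% to 15.7% and 12.3% to 15.3%, and FACITs 10.9% to 12.03% and 8.45% to 11.2%. The makeup by class therefore overlapped between the groups.

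**Figure D2:**
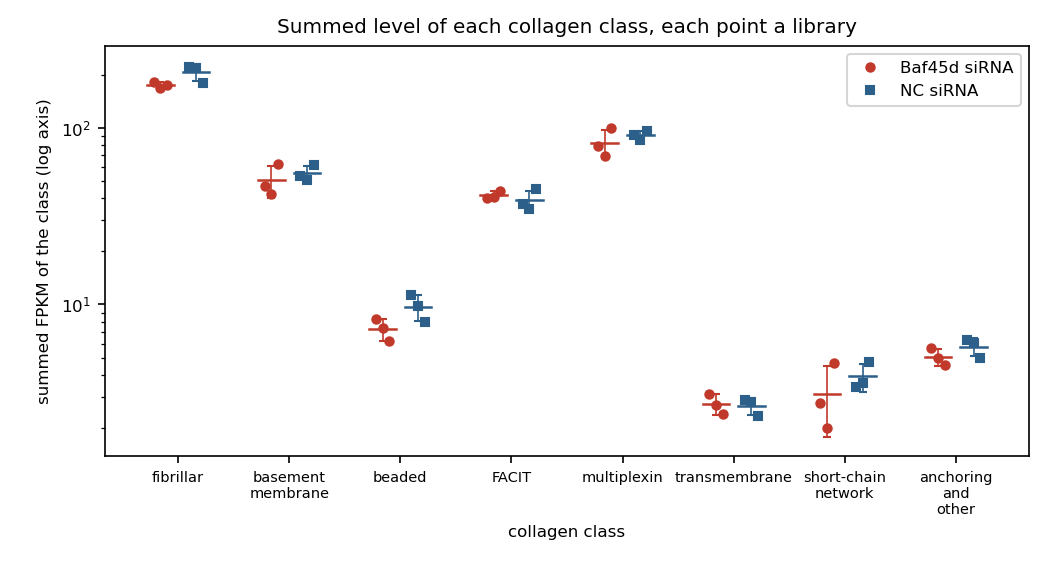
Summed FPKM (log axis) of each collagen class in each library (points) with the mean and SD of each group, Baf45d siRNA left of NC siRNA. The fibrillar sum averages 175.3 FPKM in Baf45d siRNA libraries and 206.5 FPKM in NC siRNA libraries, and the libraries of the groups overlap in every class.

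After Baf45d siRNA most collagen genes were slightly lower, and none passed the threshold on its own. Of the 38 collagens with enough counts for the test, 27 had a negative log2 fold change (71.1%) and the median was -0.14, against 48.1% negative and a median of 0.01 over all 16078 genes tested. Among the 20 collagens at 2 FPKM or more, 17 were negative with a median of -0.16, against 47.4% of the 11333 genes at that level. With main transcript lengths Col25a1 (log2 fold change 0.31) and Col11a2 (0.04) also reached 2 FPKM, and both were positive. The summed collagen FPKM was 366.9, 338.3 and 399.2 in Baf45d siRNA libraries, against 425.9, 412.9 and 402.0 in NC siRNA libraries. The groups did not overlap, although Baf45d siRNA replicate 3 was close to NC siRNA replicate 3. As a share of all counts the collagens held 0.336%, 0.310% and 0.356% in Baf45d siRNA libraries, against 0.383%, 0.372% and 0.361% in NC siRNA libraries. In bulk RNA, fewer collagen-making cells and less collagen RNA per cell cannot be told apart. Beside this, 11 of the 12 neuron markers were positive (8.3% negative, against 48.1% of all genes), with a median log2 fold change of 0.18. At an unadjusted p under 0.05 in edgeR 2 were higher (1.21% of all genes), and none passed after adjustment. The summed neuron markers were, however, lowest of the 6 libraries in Baf45d siRNA replicate 3 (871.5 CPM). The part of these markers in the collagen values was not tested.

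In edgeR's quasi-likelihood test with Benjamini-Hochberg adjustment over all genes, adjusted p of the collagens lay between 0.996 and 0.997. No gene of the 16078 passed the threshold of 0.05 (0%), nor did any with DESeq2 or limma-voom. At an unadjusted p under 0.05 edgeR gave 459 genes (2.85%), DESeq2 394 and limma-voom 483. Of the collagens 5 were lower at that level (Col6a1, Col5a1, Col7a1, Col6a6 and Col9a2), where 1.64% of all genes were lower, and 0 were higher, where 1.21% of all genes were. The groups did not overlap for 7 collagens, where 8.04% of all genes did not. All Baf45d siRNA libraries lay below all NC siRNA libraries for 5 collagens (Col5a1, Col4a6, Col6a1, Col6a6 and Col9a2; 4.3% of all genes) and above them for 2 (Col6a4 and Col25a1; 3.74% of all genes). With the replicate number as a block, 13 collagens were lower at an unadjusted p under 0.05 (4.48% of all genes) and 2 were higher (3.27% of all genes), and no collagen passed after adjustment (0.00622% of all genes did). The count of lower collagens at that level was 11 without Baf45d siRNA replicate 3 (7.12% of all genes). It was 2 without Baf45d siRNA replicate 2 (0.93% of all genes), 3 without NC siRNA replicate 1 (0.634%) and 2 without NC siRNA replicate 2 (0.686%). The p-values measure the spread between these samples.

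**Figure D3:**
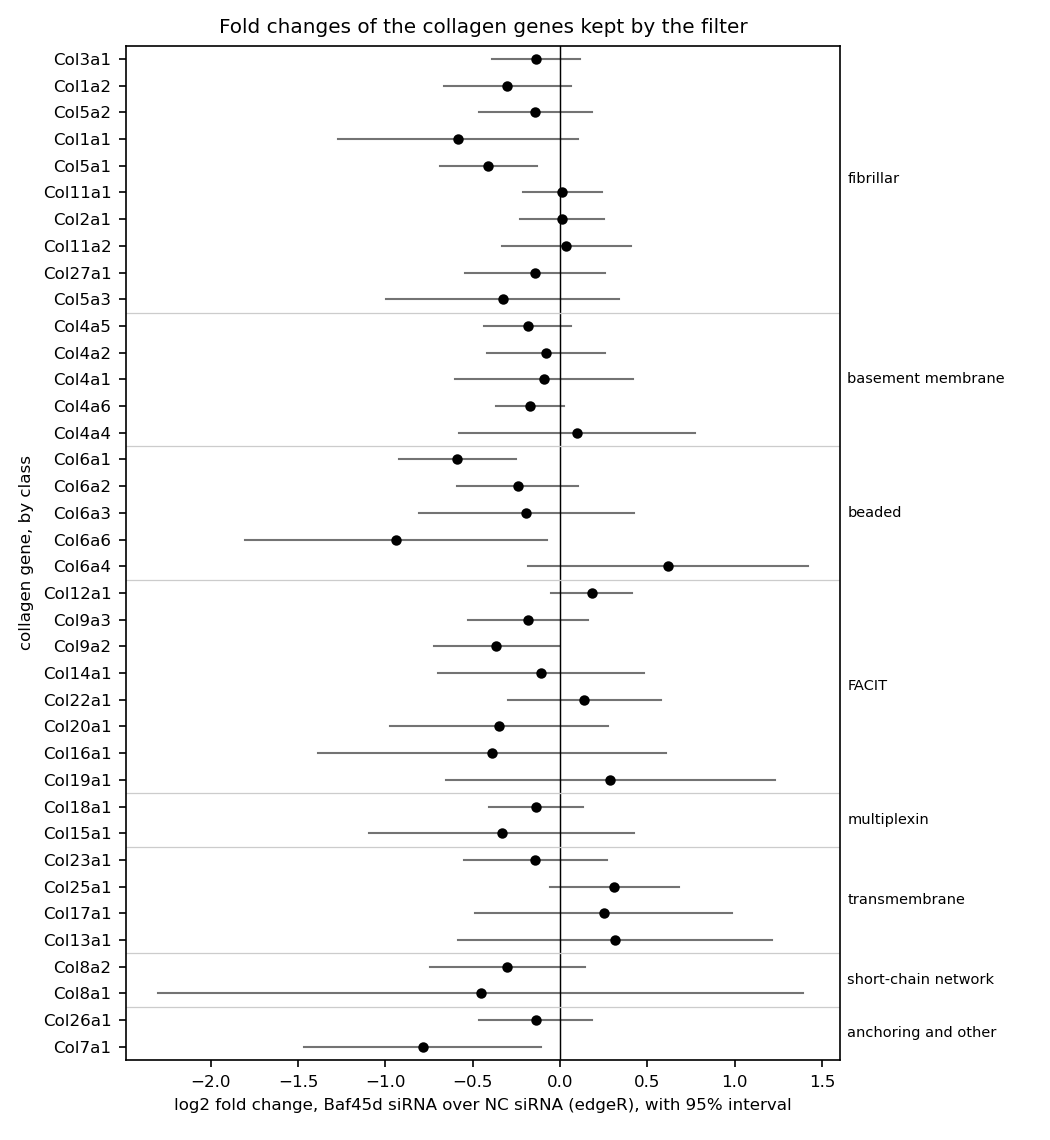
Log2 fold change, Baf45d siRNA over NC siRNA, of the 38 collagen genes tested, with 95% intervals, grouped by class. Most points lie left of 0, and the intervals of only Col5a1, Col6a1, Col6a6, Col9a2 and Col7a1 do not reach 0.

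Among the fibrillar genes 7 of 10 tested were negative, with a median of -0.14. Col5a1 (chr2:27886425-28039514, plus strand), a chain of type V collagen that helps to start fibrils, stood at 114.8, 102.4 and 148.3 CPM in Baf45d siRNA libraries, against 165.3, 152.7 and 168.3 CPM in NC siRNA libraries. Every Baf45d siRNA library lay below every NC siRNA library, by a narrow margin for replicate 3. The log2 fold change was -0.41 (SE 0.12, 95% interval -0.69 to -0.13), with an unadjusted p of 0.008 in edgeR. Col5a1 was the collagen that passed after adjustment in any alternative: without Baf45d siRNA replicate 3 (log2 fold change -0.58, adjusted p = 0.0262, where 0.269% of all genes passed) and with no filter on low counts (-0.42, adjusted p = 0.0337, where 0.0335% did). With both libraries numbered 3 omitted its adjusted p was 0.0834, and with the replicate block 0.143. Its type V partner Col5a2 stood at 228.7, 249.3 and 340.0 CPM in Baf45d siRNA libraries, against 276.7, 286.8 and 338.8 CPM in NC siRNA libraries (log2 fold change -0.14, SE 0.14). Here the groups overlapped, with both libraries numbered 3 the highest.

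Col1a1 and Col1a2 encode the chains of type I collagen, the main fibril protein of bone, tendon and skin. Col1a1 stood at 190.3, 133.0 and 110.9 CPM in Baf45d siRNA libraries, against 255.8, 260.3 and 135.7 CPM in NC siRNA libraries. Col1a2 stood at 432.9, 385.7 and 336.5 CPM in Baf45d siRNA libraries, against 535.5, 536.9 and 351.0 CPM in NC siRNA libraries. In both genes NC siRNA replicate 3 lay within the range of the Baf45d siRNA libraries. The log2 fold changes were -0.59 (SE 0.29) for Col1a1 and -0.30 (SE 0.16) for Col1a2, with 95% intervals of -1.27 to 0.10 and -0.67 to 0.06. Col3a1 stood at 575.0, 557.0 and 506.8 CPM in Baf45d siRNA libraries, against 654.6, 652.1 and 496.0 CPM in NC siRNA libraries (log2 fold change -0.14, SE 0.11). For Col3a1 the lowest of the 6 values was NC siRNA replicate 3. Col2a1 and Col11a1, of cartilage-type fibrils, and Col11a2 had log2 fold changes of 0.01, 0.01 and 0.04.

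The ratio of Col1a1 to Col1a2 in FPKM was 0.832, 0.653 and 0.624 in Baf45d siRNA libraries, against 0.904, 0.918 and 0.732 in NC siRNA libraries, which overlapped. The ratio of Col5a1 to Col5a2 was 0.567, 0.464 and 0.493 in Baf45d siRNA libraries, against 0.675, 0.602 and 0.561 in NC siRNA libraries, also with an overlap. With main transcript lengths the Col1a1 ratio averaged 0.335 in Baf45d siRNA libraries and 0.406 in NC siRNA libraries, so its absolute value depends on the length used.

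Of the basement membrane genes 4 of 5 tested were negative, with a median of -0.09. Col4a1 and Col4a2, the pair that forms the common type IV network and shares the promoter stretch shown above, were close to even. Col4a1 stood at 73.4, 69.7 and 120.0 CPM in Baf45d siRNA libraries, against 80.6, 82.8 and 117.1 CPM in NC siRNA libraries (log2 fold change -0.09, SE 0.22). Col4a2 stood at 96.7, 88.3 and 132.9 CPM in Baf45d siRNA libraries, against 110.9, 99.0 and 126.6 CPM in NC siRNA libraries (log2 fold change -0.08, SE 0.15). Both genes were highest in the libraries numbered 3 of each group, and the sign of both turned positive when Baf45d siRNA replicate 2 or NC siRNA replicate 3 was left out. The Col4a1 to Col4a2 ratio in FPKM stayed between 0.673 and 0.801 in Baf45d siRNA libraries and between 0.644 and 0.820 in NC siRNA libraries.

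Col4a5 and Col4a6 encode the chains of another type IV network and are likewise head to head. Col4a5 stood at 119.2, 103.0 and 143.2 CPM in Baf45d siRNA libraries, against 139.2, 133.5 and 142.8 CPM in NC siRNA libraries (log2 fold change -0.18, SE 0.11). Col4a6 stood at 37.4, 35.5 and 38.7 CPM in Baf45d siRNA libraries, against 42.2, 40.8 and 42.8 CPM in NC siRNA libraries (log2 fold change -0.17, SE 0.09, 95% interval -0.37 to 0.02). Col4a6 varied little within each group and its groups did not overlap, whereas those of Col4a5 did.

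The beaded genes, which form type VI microfilaments next to cells, had 4 of 5 tested negative and a median of -0.24, which was -0.09 without Baf45d siRNA replicate 3 and -0.46 without Baf45d siRNA replicate 1. Col6a1 (chr10:76708792-76726168, minus strand) had the smallest p-value of the 38 collagens. It stood at 17.2, 14.2 and 14.9 CPM in Baf45d siRNA libraries, against 27.2, 23.4 and 18.9 CPM in NC siRNA libraries. The groups did not overlap, with NC siRNA replicate 3 the nearest to the Baf45d siRNA libraries. Its log2 fold change was -0.59 (SE 0.15, 95% interval -0.92 to -0.25), with an unadjusted p of 0.00304 in edgeR. Col6a2 stood at 21.8, 23.2 and 15.8 CPM in Baf45d siRNA libraries, against 26.7, 24.0 and 21.3 CPM in NC siRNA libraries (log2 fold change -0.24, SE 0.16). Col6a3 stood at 18.6, 14.2 and 8.93 CPM in Baf45d siRNA libraries, against 20.3, 15.96 and 11.5 CPM in NC siRNA libraries (log2 fold change -0.19, SE 0.27), and its sign turned without Baf45d siRNA replicate 3 or NC siRNA replicate 1. It was lower in Baf45d siRNA than in NC siRNA at each replicate number. All 3 chains are needed for the common type VI assembly, and the groups overlapped for Col6a2 and Col6a3.

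Col6a6 and Col6a4 encode further type VI chains and were near the detection limit. Col6a6 stood at 0.851, 0.356 and 0.817 CPM in Baf45d siRNA libraries, against 1.456, 1.502 and 0.951 CPM in NC siRNA libraries (log2 fold change -0.94, SE 0.39, unadjusted p of 0.0359 in edgeR). Col6a4 stood at 0.851, 0.832 and 0.817 CPM in Baf45d siRNA libraries, against 0.392, 0.657 and 0.560 CPM in NC siRNA libraries (log2 fold change 0.62, SE 0.36). The groups did not overlap in either gene, and the 2 differed in direction.

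Of the FACIT genes 5 of 8 tested were negative, with a median of -0.15. Col12a1, found on fibrils of tendon and other dense tissue, had the highest positive log2 fold change of the 20 collagens at 2 FPKM or more, of which 3 were positive (Col12a1, Col11a1 and Col2a1). It stood at 480.9, 502.7 and 532.3 CPM in Baf45d siRNA libraries, against 414.7, 402.5 and 518.9 CPM in NC siRNA libraries. Only NC siRNA replicate 3 reached into the range of the Baf45d siRNA libraries, and the log2 fold change of 0.18 (SE 0.10, 95% interval -0.05 to 0.41) did not pass. Col9a2, a chain of the type IX collagen of cartilage, stood at 7.09, 5.94 and 6.70 CPM in Baf45d siRNA libraries, against 8.45, 7.70 and 9.29 CPM in NC siRNA libraries (log2 fold change -0.36, SE 0.16, unadjusted p of 0.0462 in edgeR). Its partner Col9a3 stood at 13.6, 10.99 and 11.2 CPM in Baf45d siRNA libraries, against 15.1, 11.6 and 14.1 CPM in NC siRNA libraries (log2 fold change -0.18, SE 0.15). Col9a2 did not overlap between the groups and Col9a3 did; 6.07% of the exon bases of Col9a3 are shared with an antisense gene.

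Col18a1 stood at 553.8, 490.0 and 697.4 CPM in Baf45d siRNA libraries, against 643.1, 600.9 and 674.2 CPM in NC siRNA libraries. The highest of the 6 values was Baf45d siRNA replicate 3, and the log2 fold change was -0.14 (SE 0.12). The other multiplexin, Col15a1, stood at 1.14, 1.19 and 1.36 CPM in Baf45d siRNA libraries, against 1.06, 2.25 and 1.29 CPM in NC siRNA libraries (log2 fold change -0.33, SE 0.34). NC siRNA replicate 2 alone stood higher.

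The transmembrane collagens were the class with a positive median, at 0.28 over 4 genes of which 1 was negative. The median was 0.13 without NC siRNA replicate 3 and 0.10, with 2 of 4 negative, when both libraries numbered 3 were omitted. Col25a1, a membrane collagen first described in brain, stood at 10.3, 10.3 and 8.66 CPM in Baf45d siRNA libraries, against 8.51, 8.54 and 6.55 CPM in NC siRNA libraries. The groups did not overlap, and the log2 fold change was 0.31 (SE 0.17, 95% interval -0.06 to 0.68). Col23a1 stood at 10.8, 8.43 and 7.08 CPM in Baf45d siRNA libraries, against 10.6, 9.95 and 8.51 CPM in NC siRNA libraries (log2 fold change -0.14, SE 0.18). Col17a1, of epidermal hemidesmosomes, had a log2 fold change of 0.25 (SE 0.33) at 1.35 CPM in Baf45d siRNA libraries and 1.14 CPM in NC siRNA libraries.

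Among the short-chain collagens, Col8a2, a chain of the lattice under corneal endothelium, stood at 10.9, 8.02 and 14.8 CPM in Baf45d siRNA libraries, against 13.6, 13.5 and 14.5 CPM in NC siRNA libraries (log2 fold change -0.30, SE 0.20). Its partner Col8a1 stood at 2.44, 1.66 and 10.2 CPM in Baf45d siRNA libraries, against 3.14, 4.69 and 11.9 CPM in NC siRNA libraries (log2 fold change -0.45, SE 0.77). The libraries numbered 3 were the highest of each group in both genes. With the replicate block both were lower at an unadjusted p under 0.05 and did not pass after adjustment. Col10a1, of hypertrophic cartilage, had 2, 0 and 3 counts in Baf45d siRNA libraries and 0 counts in each NC siRNA library, too few to compare.

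Col7a1 builds the anchoring fibrils that hold epithelia to the tissue beneath. It stood at 2.33, 3.15 and 5.77 CPM in Baf45d siRNA libraries, against 5.38, 6.81 and 7.28 CPM in NC siRNA libraries. Baf45d siRNA replicate 3 reached above the lowest NC siRNA library, and the log2 fold change was -0.79 (SE 0.30, 95% interval -1.46 to -0.11, unadjusted p of 0.027 in edgeR). Col26a1 stood at 44.4, 38.4 and 31.9 CPM in Baf45d siRNA libraries, against 47.2, 44.1 and 35.0 CPM in NC siRNA libraries (log2 fold change -0.14, SE 0.14), with overlap. Col28a1 had 2, 0 and 6 counts in Baf45d siRNA libraries and 0, 2 and 2 counts in NC siRNA libraries.

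The remaining tested collagens, Col27a1, Col5a3, Col4a4, Col14a1, Col22a1, Col20a1, Col16a1, Col19a1 and Col13a1, had log2 fold changes between -0.39 (Col16a1) and 0.31 (Col13a1), and their groups overlapped. Of these, Col14a1, a FACIT of skin and tendon, was the highest, at 2.05 FPKM in Baf45d siRNA libraries and 2.22 FPKM in NC siRNA libraries. The 6 collagens with too few counts for the test, Col24a1, Col4a3, Col6a5, Col9a1, Col10a1 and Col28a1, stayed under 0.1 FPKM in every library.

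**Figure D4:**
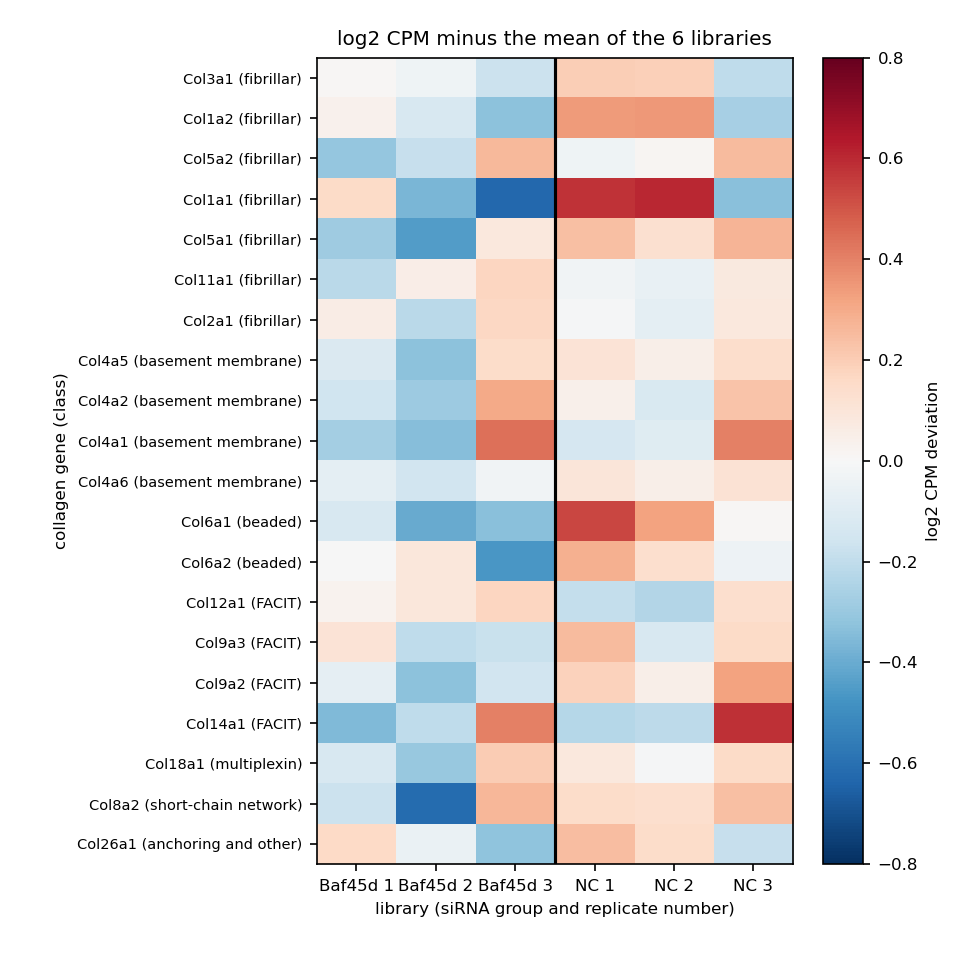
Log2 CPM minus the mean of the 6 libraries for the 20 collagen genes at 2 FPKM or more, with Baf45d siRNA libraries 1 to 3 left of NC siRNA libraries 1 to 3. The libraries numbered 3 of both groups share colours for many genes, such as Col4a1 and Col4a2 above the mean and Col1a2 and Col3a1 below it.

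The libraries numbered 3 differed from the others in both groups in like ways, a pattern noticed after the values were seen and not tested. Both lay above the other 4 libraries for 11 of the 38 collagens (17.1% of all genes) and below them for 5 (15.4% of all genes). Above were Col4a1, Col4a2, Col4a5, Col5a2 and Col18a1 among others, and below were Col1a2 and Col3a1 among others. Beside them, summed smooth muscle and pericyte markers (10 genes) stood at 99.3, 114.0 and 282.7 CPM in Baf45d siRNA libraries, against 183.7, 174.3 and 273.3 CPM in NC siRNA libraries. Acta2 carried most of that sum, at 69.4, 82.4 and 227.3 CPM in Baf45d siRNA libraries and 149.3, 139.0 and 221.6 CPM in NC siRNA libraries. Mcam and Cnn1 were also highest in both libraries numbered 3, whereas Des was lowest there. Summed mesenchyme and fibroblast markers (14 genes) stood at 1088, 1231 and 1374 CPM in Baf45d siRNA libraries, against 1210, 1185 and 1289 CPM in NC siRNA libraries. The part of either list in the collagen values was not tested. With both libraries numbered 3 omitted, 31 of the 38 collagens were negative, 13 were lower at an unadjusted p under 0.05 (5.55% of all genes) and none passed after adjustment (0.124% of all genes did).

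Most enzymes and chaperones that build collagen also had negative log2 fold changes. Of 37 listed genes 36 were tested and 29 were negative (80.6%, against 48.1% of all genes), with a median of -0.15. At an unadjusted p under 0.05, 6 were lower and 0 higher, where 1.64% and 1.21% of all genes were, and none passed after adjustment. P4ha2, a subunit of prolyl hydroxylase, stood at 34.1, 31.5 and 33.3 CPM in Baf45d siRNA libraries, against 44.2, 38.0 and 41.2 CPM in NC siRNA libraries (log2 fold change -0.32, SE 0.10). Fkbp10, a chaperone of procollagen, stood at 64.7, 60.6 and 82.4 CPM in Baf45d siRNA libraries, against 88.7, 88.0 and 82.9 CPM in NC siRNA libraries (log2 fold change -0.32, SE 0.11). The groups overlapped in neither gene.

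Of the collagen receptors 4 of 10 tested were negative (40.0%, near the 48.1% of all genes), with a median of 0.12. Itga2, an integrin chain that binds collagen, stood at 2.55, 2.32 and 2.67 CPM in Baf45d siRNA libraries, against 1.40, 1.55 and 1.68 CPM in NC siRNA libraries (log2 fold change 0.70, SE 0.24), and was the receptor higher at an unadjusted p under 0.05 (1.21% of all genes). Of 18 transcription factors tested that act on collagen genes, 11 were negative with a median of -0.02. Egr1, a zinc-finger factor that acts on type I collagen genes, stood at 20.99, 23.7 and 24.4 CPM in Baf45d siRNA libraries, against 29.0, 37.1 and 25.7 CPM in NC siRNA libraries (log2 fold change -0.41, SE 0.14), without overlap. None of the receptors or factors passed after adjustment.

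In the authors' deposited table of gene comparisons, 4 collagens had an unadjusted p under 0.05, as did 394 of 27064 genes (1.46%): Col6a1 (0.000538), Col5a1 (0.0024), Col7a1 (0.0112) and Col1a2 (0.0499). The authors' deposited table of Reactome terms, made from 151 genes, gave Collagen formation an adjusted p of 0.00515 with 9 genes, 0 up and 9 down. In that deposited table of the authors, Extracellular matrix organization had an adjusted p of 0.000789 with 18 genes, 2 up and 16 down, and the 4 collagens were among them. Integrin cell surface interactions, also with these 4 collagens, passed in the authors' Reactome terms (adjusted p = 0.00269, 9 genes, 2 up and 7 down). So did Collagen biosynthesis and modifying enzymes (adjusted p = 0.00515, 8 genes, 0 up and 8 down). Some further Reactome terms with the same 4 collagens did not pass 0.05, such as Collagen chain trimerization (adjusted p = 0.146) and Collagen degradation (0.0594). No term with a collagen passed in the authors' deposited table of KEGG terms, where Protein digestion and absorption, with the same 4, had an adjusted p of 0.682. The input of these terms was not past an adjusted threshold, since the smallest adjusted p in the authors' deposited table of genes was 0.0652.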

How the data were processed

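RNA of 3 Baf45d siRNA and 3 NC siRNA P19 samples was sequenced on day 5 of retinoic acid. The authors deposited raw counts per Ensembl gene and library, per the file headers, with FPKM per gene and library. The authors' table also holds a signal (the mean normalized count of each group), a log2 fold change, a p-value and an adjusted p-value. The authors' term tables give p-values and gene counts, and a table of protein pairs gives a score that the authors deposited and that is not used in the report. The submitters' processing notes name DESeq2 1.16.1 and the build mm9; 98.3% of 54495 genes had the identical start and end in GENCODE M21, so coordinates are given as GRCm38. For the aligner, the counter and whether strand was used, the sources used here give nothing, so counts of the 13 collagens that share exon bases with another gene are uncertain. No per-library column was left unmatched to a sample.

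Counts were fitted with edgeR 4.0.16 in R 4.3.3: filterByExpr (16078 genes and 38 of the 44 collagens kept; Col24a1, Col4a3, Col6a5, Col9a1, Col10a1 and Col28a1 were not), TMM scaling, and a two-sided robust quasi-likelihood F test on group alone; p-values were adjusted by Benjamini-Hochberg and called at 0.05. SE and 95% intervals come from that fit. Alternatives were RLE factors, no filter, DESeq2 1.42.0, limma-voom and log2 FPKM with a pseudocount of 1 or 0.1 in limma 3.58.1, the replicate number as a block and leaving out each library; omitting both libraries numbered 3 and using main transcript lengths were added after seeing the data. Deviations from group means correlated at 0.172, 0.134 and 0.346 between same-numbered samples, and at -0.244 to 0.115 between other pairs. Deviations within a group are tied through its mean. Likeness of the libraries numbered 3 alone can therefore raise r among the others. Baf45d siRNA replicate 2 gave 0.134 with NC siRNA replicate 2 and 0.115 with NC siRNA replicate 1. Whether the numbers pair the samples is therefore not settled. The main test left the numbers out, and the block is given as an alternative. Replicates are biological per the labels; within a group, no 2 libraries agreed within counting noise. On simulated counts for this comparison (15807 genes) the test recovered 51.5% of 66 genes changed 1.5-fold. It recovered 78.8% of those changed 2-fold and 78.8% of those changed 3-fold, and 7.38% of its calls were false. The simulated libraries were drawn independently, without the likeness of the libraries numbered 3, so these shares may not hold for the real counts.

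The collagen genes, lists and tests were chosen with earlier results of these data known. Values per library are given for the 3 highest genes of each class by FPKM, except Col17a1, which has group means. They are also given for the 8 smallest p-values, any gene past the threshold in a planned fit, and tested collagens whose groups did not overlap. Of the enzymes and chaperones the 2 genes with the smallest p-values are named. Of the receptors and of the transcription factors, only the gene with the smallest p-value is named. Other genes were named after their values were seen. Promoter windows are from RefSeq (GRCm38.p6). Plots were drawn with matplotlib 3.10.9 in Python 3.11.15.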

Additional observations from a re-analysis of the deposited data

How the results depend on the processing

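The 27 negative collagens of 38 became 23 without NC siRNA replicate 3 and 30 without NC siRNA replicate 2, and the median of all collagens ranged from -0.21 to -0.09 when single libraries were left out. The median was -0.09 without Baf45d siRNA replicate 2. The count of all genes past the threshold, 0 with the chosen settings, was 10 with no filter, 20 with both libraries numbered 3 omitted, and 0 to 44 when single libraries were left out, 44 of them without Baf45d siRNA replicate 3. The count of collagens past it was 1 with no filter and 0 to 1 when single libraries were left out, Col5a1 in each case. With the replicate block 1 gene passed, no collagen did, the collagen median was -0.16, and no other call changed. When single libraries were left out, the FACIT median ranged from -0.2145 to 0.0107, the basement membrane median from -0.28 to 0.04, the beaded median from -0.46 to -0.09 and the fibrillar median from -0.22 to -0.11. Col4a2 ranged from -0.277 to 0.0394, Col4a1 from -0.385 to 0.1034, Col6a3 from -0.462 to 0.0457, Col15a1 from -0.531 to 0.0638 and Col8a1 from -1.67 to 0.28, and the cause was not tested. If the replicate numbers pair the samples, leaving out 1 library breaks a pair. Col6a3 and Col8a1 were lower in Baf45d siRNA than in NC siRNA at every replicate number. Of the other collagens, Col2a1, Col11a1, Col11a2, Col4a4, Col14a1, Col16a1 and Col27a1 took both signs when single libraries were left out, and Col2a1, Col11a1, Col13a1 and Col19a1 turned negative with both libraries numbered 3 omitted (Col13a1 to -0.21). The median SE was 0.18 for the 38 tested collagens at any level and 0.11 for genes at 5 CPM or more, which are not like sets. Such SEs limit what 3 samples per group can show.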
